A study of Mus musculus with 12 samples.

Results

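The miRNA precursors described here are a chosen list of 10 from the Meg3 and anti-Rtl1 stretch of the imprinted Dlk1-Dio3 region of mouse chromosome 12: mmu-mir-770, mmu-mir-673, mmu-mir-337, mmu-mir-540 and mmu-mir-665 on the Meg3 side, and mmu-mir-431, mmu-mir-433, mmu-mir-127, mmu-mir-434 and mmu-mir-136 opposite Rtl1. They were found by their precursor names and are 10 of the 1532 precursors with reads in these libraries, of which 997 were annotated and 535 were predicted by the submitters. The samples were retinal small RNA of db/db mice, a strain whose leptin receptor does not work and which grows obese and diabetic. The groups were 6 libraries from Keluoxin-treated db/db mice (Keluoxin, a Chinese herbal medicine) and 6 libraries from db/db mice labelled as the model, so the genotype and its KsJ background were shared by all 12. The labels gave no age, dose or duration, no non-diabetic mice were analysed here, and the samples are not stated to be separate animals, so the p-values measure a spread between samples that may be partly technical. The labels give the retina as the source but describe RNA extraction from an exosome pellet. As a check of the tissue, 7 precursors abundant in retinal tissue were summed (mir-182, mir-183, mir-96, mir-124, mir-9, mir-181a and mir-204). They gave 316600 to 549400 CPM (read counts scaled to a common library size) in the Keluoxin libraries and 512600 to 593100 CPM in the model libraries. Of the 15 tested arms of these precursors 0 were higher and 2 were lower in Keluoxin, beside 4.11% and 9.59% of annotated arms. Some other marker lists moved with the groups and others did not. The leukocyte list gave 72.7 to 92.7 CPM in Keluoxin and 76.3 to 86.3 CPM in model libraries, with 0 of 3 tested arms called. The pericyte and smooth muscle list gave 3255 to 6992 CPM in Keluoxin and 2482 to 4182 CPM in model libraries. Of its 4 tested arms 0 were called. mir-126a of endothelium gave 1099 to 1415 CPM in Keluoxin and 1597 to 2122 CPM in model libraries, with 1 of 2 tested arms lower. The 6 epithelial precursors gave 102.9 to 178.5 CPM in Keluoxin and 173.9 to 328.1 CPM in model libraries. These ranges overlapped, and 1 of 5 tested epithelial arms was lower. The pancreatic islet precursor mir-375 gave 151.0 to 181.9 CPM in Keluoxin and 203.9 to 249.9 CPM in model libraries, with its 1 tested arm lower, and the liver precursor mir-122 gave 2.38 to 41.2 CPM in Keluoxin and 1.18 to 4.89 CPM in model libraries, with its 1 tested arm higher. The part of these differences in the results on the member arms was not tested. On the first principal component of all arms, 52.6% of the variance, model 1 lay among the Keluoxin libraries. The member counts of 1 arm higher and 4 lower were the same without model 1 and Keluoxin 4 together. The shares over all arms were not the same: 14.2% were called higher and 14.2% lower without them, against 9.25% and 8.01% with all libraries.

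The Dlk1-Dio3 region is imprinted: protein-coding genes such as Dlk1 and Rtl1 are read from the paternal chromosome, and the noncoding transcripts Meg3, anti-Rtl1, Rian and Mirg, with their miRNAs and small nucleolar RNAs, from the maternal one. The anti-Rtl1 transcript runs through Rtl1, a retrotransposon-derived gene, on the other strand, so its miRNAs are perfect complements of the Rtl1 mRNA and in mice guide its cleavage. A hairpin precursor is cut into a 5p and a 3p arm, and an arm recognises most targets through its seed, bases 2 to 8, so the base at which a read starts sets the seed.

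All 10 deposited precursor sequences were identical to the RefSeq hairpins of GRCm38.p6, all on the plus strand of chromosome 12. The mir-770 hairpin, chr12:109563692-109563785, lay within 4 annotated Meg3 transcripts, in an exon of 1 of them and in introns of the other ones. mir-673 began 264 bases past the annotated end of Meg3, and mir-337, mir-540 and mir-665 lay between Meg3 and Rtl1. Each anti-Rtl1 hairpin lay inside the coding region of Rtl1 (chr12:109590172-109595403, minus strand), between chr12:109590447 and chr12:109595388. The mature sequences of the arms on which the results turn are given from RefSeq, with the seed in capitals.
miR-770-5p: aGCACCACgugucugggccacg
miR-770-3p: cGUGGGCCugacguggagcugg
miR-337-3p: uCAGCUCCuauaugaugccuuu
miR-540-3p: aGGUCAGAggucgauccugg
miR-431-3p: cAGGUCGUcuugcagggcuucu
miR-433-5p: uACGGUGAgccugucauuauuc
miR-127-3p: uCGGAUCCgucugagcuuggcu
miR-434-5p: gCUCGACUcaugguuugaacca
miR-434-3p: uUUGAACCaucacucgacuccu
miR-136-5p: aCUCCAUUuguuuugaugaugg
miR-136-3p: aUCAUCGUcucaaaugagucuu
The 20 mature sequences of the 10 precursors had 20 different seeds, so none shared a seed with another. Of the 1738 mouse mature sequences in the table, miR-6985-3p had the seed of miR-673-5p and miR-6915-5p had that of miR-540-3p, and the other 18 seeds occurred nowhere else.

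The reverse complement of each of the 10 anti-Rtl1 mature sequences was found without a mismatch in the Rtl1 transcript of GENCODE M21, whereas none of the 10 Meg3-side sequences was. The Rtl1 sites of the anti-Rtl1 arms whose levels are described most closely are given as DNA, with the bases opposite the seed in capitals.
Rtl1 site of miR-433-5p: gaataatgacaggcTCACCGTa
Rtl1 site of miR-127-3p: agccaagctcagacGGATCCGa
Rtl1 site of miR-434-5p: tggttcaaaccatgAGTCGAGc
Rtl1 site of miR-136-3p: aagactcatttgagACGATGAt

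The 10 precursors held 223360 of 62878432 counted reads, 97% of them on the anti-Rtl1 precursors. Total counted reads ran from 1933375 to 6066429 in the Keluoxin libraries and from 3819945 to 7892147 in the model libraries, and the 10 precursors made up 0.311 to 0.482% of them in Keluoxin and 0.251 to 0.372% in model libraries. mir-434 alone gave 47.1% of the members' reads, mir-127 25.1% and mir-136 17.3%, and mir-673 gave the fewest, 295 reads. Of 20 possible arms, 19 had reads, miR-665-5p having none among the listed sequences, which begin at 2 reads. In order of mean level among 1426 annotated arms, miR-434-3p stood at rank 53, miR-127-3p at 81, miR-136-3p at 88, miR-434-5p at 89, miR-127-5p at 107 and miR-433-3p at 136. Mean read lengths of the arms ran from 19.1 nt in miR-540-5p to 22.7 nt in miR-431-3p. For each pair of neighbours in that order of mean level the ranges over the 12 libraries overlapped.

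Most arms were read from the RefSeq mature start, but 3 were not. Of the 19 arms with reads, 16 had their most frequent start at the RefSeq position. miR-431-3p reads began 2 nt before it in 64.7% and 3 nt before it in 28.1% of 2177 reads, and only 7.03% began at it. miR-136-3p reads began 1 nt before the RefSeq start in 58.9% and at it in 34.1% of 28964 reads, and miR-337-3p reads did so in 65.7% and 34.3% of 216 reads. The most frequent reads of the 2 deeper arms, as deposited and with bases 2 to 8 in capitals, show the shifted seeds.
most frequent miR-431-3p read: tGCAGGTCgtcttgcagggcttt
most frequent miR-136-3p read: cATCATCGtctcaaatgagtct
The seeds of the most frequent starts, GCAGGUC for miR-431-3p, AUCAUCG for miR-136-3p and UCAGCUC for miR-337-3p, matched no mouse mature sequence in the table. Several other arms were read from a pair of starts: miR-127-5p at the RefSeq start (57.2%) and 2 nt after it (37.0%), miR-434-5p at it (63.7%) and 1 nt before (36.2%), miR-136-5p at it (72.4%) and 3 nt before (22.7%).

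**Figure D1:**
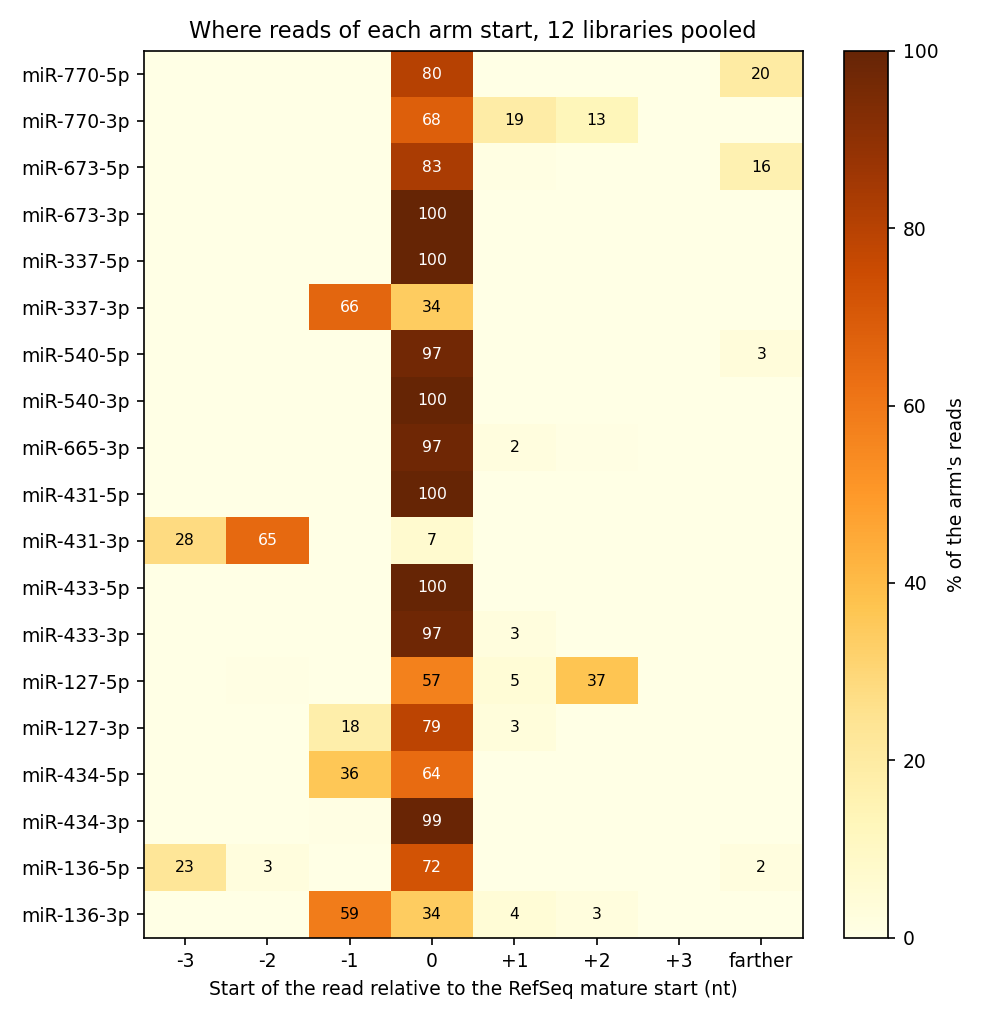
Share of each arm's reads (colour and printed number, in % of the reads of that arm over 12 libraries; shares under 1% are not printed) by the start of the read relative to the RefSeq mature start, in nt. miR-431-3p, miR-136-3p and miR-337-3p have most reads left of 0, with 64.7% at -2, 58.9% at -1 and 65.7% at -1.

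Neither the share of reads at the most frequent start nor the mean read length passed the test between groups in any of the 9 member arms deep enough to be tested (limma, at least 50 reads in every library). The same tests called 3.67% of 381 arms for the start and 8.14% for the length. At an unadjusted p under 0.05 there were 1 member arm for the start and 2 for the length, and no other tool was run. The smallest adjusted p for the start was that of miR-136-5p (0.15). Its reads began at the RefSeq start in 70.4 to 82.2%, median 76.6%, in Keluoxin libraries and in 63.3 to 73.1%, median 69.9%, in model libraries. Of its 9708 reads, 223 lay away from the mature start, 34 in Keluoxin and 189 in model libraries. The smallest adjusted p for the length was that of miR-433-3p (0.0976), at 21.7 to 21.9 nt, median 21.8 nt, in Keluoxin and 21.5 to 21.8 nt, median 21.7 nt, in model libraries. Without Keluoxin 4 the length fit called 2 member arms, and without model 6 it called 1. Neither these counts nor those at an unadjusted p have a share over all arms beside them. They are not read as results about the members.

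Of the 17 member arms that passed the filter on low counts, 1 was higher and 4 were lower in the Keluoxin libraries (quasi-likelihood test of edgeR, p adjusted over 811 arms by Benjamini-Hochberg, threshold 0.05). The same test called 9.25% of all 811 arms higher and 8.01% lower, 17.3% in either direction. Among the 511 annotated arms it called 4.11% higher and 9.59% lower, 13.7% in either direction. The higher arm was miR-136-3p, and the lower ones were miR-770-3p, miR-540-3p, miR-433-5p and miR-434-5p. The median log2 fold change was -0.13 over the 17 arms, against 0.034 over all arms tested and -0.12 over annotated arms. For 0 of the 17 arms did the 6 Keluoxin and 6 model values not overlap at all, which held for 7.77% of all tested arms. Scaling moved these values together: with total counted reads in place of TMM scaling the median of all arms moved by 0.19 and 77.4% of all calls were higher, with upper quartile scaling it moved by -0.26 and 39.6% were, against 53.6% of calls with TMM. The bulk libraries cannot tell fewer cells of a type from less RNA in each cell.

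**Figure D2:**
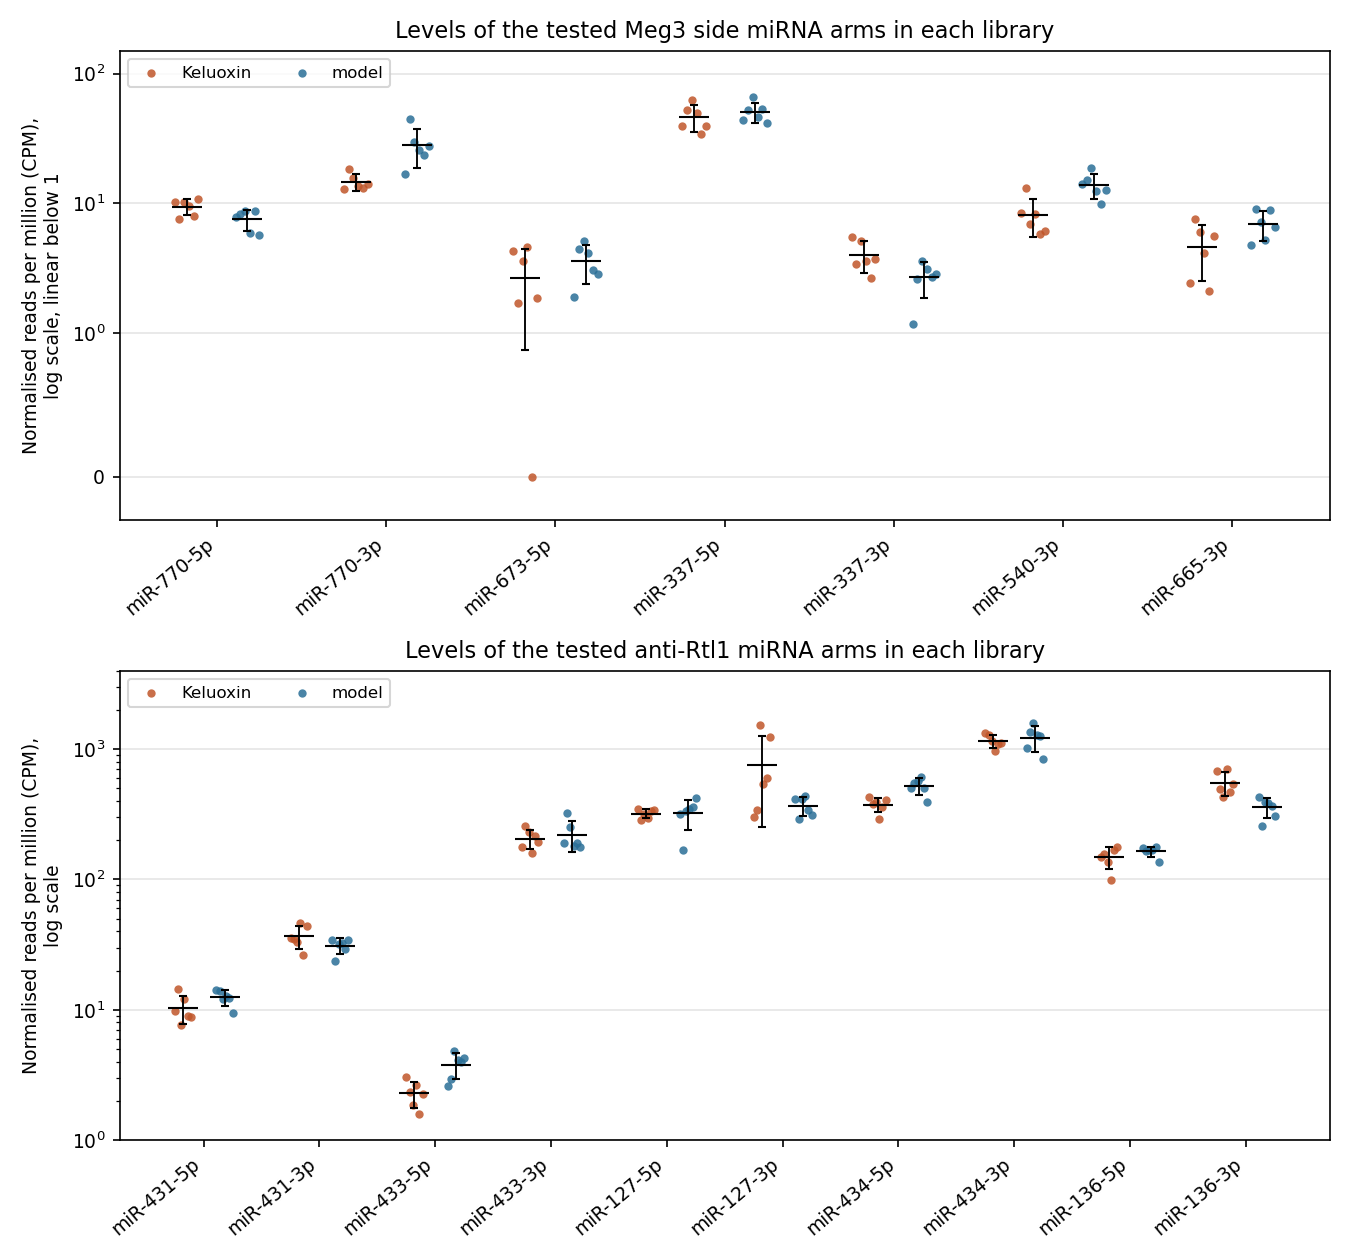
Normalised read counts (CPM) of the 17 tested arms in each library on a log axis, the upper panel being linear below 1; orange points are Keluoxin libraries and blue points model libraries, and bars are the mean and SD of 6 libraries. miR-127-3p has the widest spread, 299 to 1525 CPM in Keluoxin libraries, and miR-770-3p has 12.8 to 18.3 CPM in Keluoxin against 16.8 to 44.5 CPM in model libraries.

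On the Meg3 side, 2 of the 7 tested arms were lower and 0 were higher in Keluoxin (0 higher also at an unadjusted p under 0.05 and with DESeq2). With edgeR 8.01% of all tested arms were lower and 9.25% higher, and of annotated arms 9.59% and 4.11%. With DESeq2 4.78% of 2134 arms were lower and 6.28% higher, and the unadjusted count has no such share beside it. The median log2 fold change of the 7 arms was -0.36, against -0.12 over annotated arms. The summed level of the 5 precursors was 69.2 to 111.6 CPM, median 90.3, in Keluoxin and 93.1 to 141.1 CPM, median 108.4, in model libraries, with no test on the sum. These precursors were scarce, so single libraries held few of their reads.

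miR-770-3p, the more frequent arm of the precursor inside Meg3, fell in the Keluoxin libraries. Its level was 12.8 to 18.3 CPM, median 13.7, in Keluoxin libraries and 16.8 to 44.5 CPM, median 26.7, in model libraries, and 5 of 6 Keluoxin libraries lay below every model library. The log2 fold change was -0.94 ± 0.22 (SE; adjusted p = 0.016), and the arm stayed below the threshold in each of the 25 alternative fits, with adjusted p from 8.4e-04 to 0.038. The opposite arm, miR-770-5p, had a log2 fold change of 0.32 (95% interval -0.072 to 0.71; adjusted p = 0.216). Of its 542 reads, 106 lay away from the mature start, with a mean length of 15.2 nt, and 93 of them were in Keluoxin libraries and 13 in model libraries. Without those reads its log2 fold change was -0.096.

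miR-540-3p was lower in Keluoxin by a log2 fold change of -0.77 ± 0.23 (SE; adjusted p = 0.043). Its level was 5.81 to 13.1 CPM, median 7.59, in Keluoxin and 9.79 to 18.8 CPM, median 13.4, in model libraries. Keluoxin 2 was the high one, at 13.1 CPM, and the other 5 Keluoxin libraries lay below every model library. The call was lost in 13 of 25 alternative fits, among them those without model 2, 3, 4 or 6 or without Keluoxin 1, 3, 4, 5 or 6 (adjusted p 0.0587 to 0.0933), and with reads free of differences to the precursor the log2 fold change was -0.57 (adjusted p = 0.155).

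The other Meg3-side arms did not pass the test. miR-337-5p, the most abundant of them, had 34.3 to 62.8 CPM, median 44.7, in Keluoxin and 41.7 to 65.6 CPM, median 49.5, in model libraries, with a log2 fold change of -0.13 (95% interval -0.51 to 0.25; adjusted p = 0.612). The groups of miR-337-5p overlapped widely. Its partner miR-337-3p had 2.64 to 5.50 CPM, median 3.65, in Keluoxin and 1.18 to 3.61 CPM, median 2.79, in model libraries, from 216 reads in all, and 3 Keluoxin libraries lay above every model library. The log2 fold change of miR-337-3p was 0.57 (95% interval -0.013 to 1.16; adjusted p = 0.149). miR-665-3p was measured at 2.11 to 7.59 CPM, median 4.85, in Keluoxin and 4.73 to 8.97 CPM, median 6.89, in model libraries, with a log2 fold change of -0.56 (95% interval -1.25 to 0.13; adjusted p = 0.217). For miR-673-5p the range was 0 to 4.63 CPM, median 2.72, in Keluoxin and 1.89 to 5.08 CPM, median 3.61, in model libraries, with a log2 fold change of -0.36 (95% interval -1.42 to 0.70; adjusted p = 0.602), and 35 of its 219 reads lay away from the mature start, 33 of them in Keluoxin libraries. The interval for miR-673-5p spans both directions. Its log2 fold change was -0.86 with reads near the mature start alone (adjusted p = 0.204), -0.84 with reads of 18 to 26 nt (adjusted p = 0.211) and -0.16 without Keluoxin 5 (adjusted p = 0.762). miR-673-3p, with 76 reads, and miR-540-5p, with 58, were under the filter.

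Among the anti-Rtl1 arms, 1 of 10 tested was higher and 2 were lower in Keluoxin, and with DESeq2 1 was higher and 1 lower. With edgeR 9.25% of all tested arms were higher and 8.01% lower, and of annotated arms 4.11% and 9.59%. With DESeq2 6.28% of 2134 arms were higher and 4.78% lower. Against -0.12 over annotated arms, the median log2 fold change of the 10 anti-Rtl1 arms was -0.093. Their summed level was 3106 to 4230 CPM, median 3358, in Keluoxin and 2634 to 3782 CPM, median 3197, in model libraries, with overlapping groups. Without miR-127-3p, left out after its spread was seen, it was 2567 to 3149 CPM, median 2764, in Keluoxin and 2322 to 3366 CPM, median 2881, in model libraries.

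**Figure D3:**
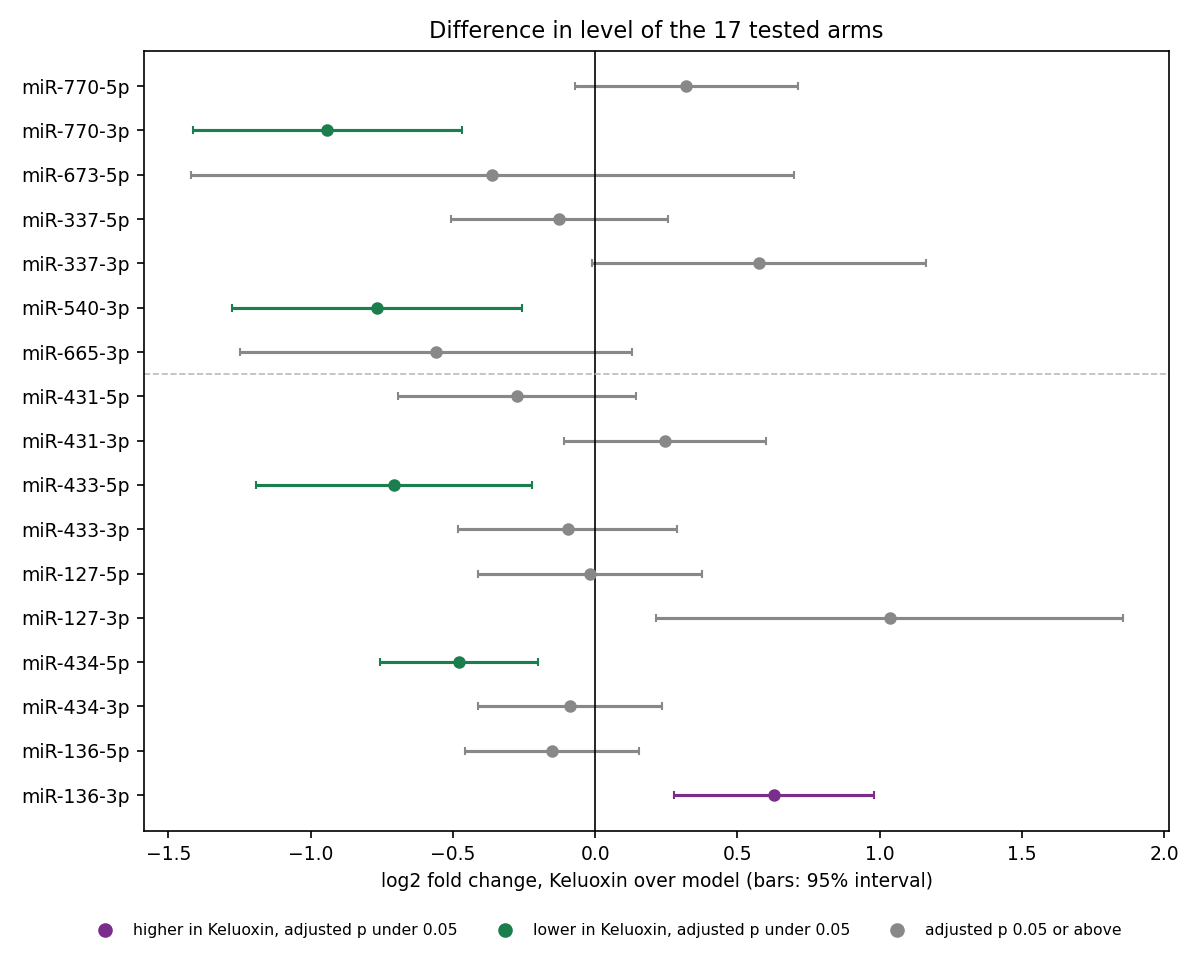
log2 fold change (Keluoxin over model, horizontal axis) of the 17 tested arms, with 95% intervals as bars; the dashed line parts the Meg3 side above from the anti-Rtl1 arms, purple marks the arm called higher and green those called lower. miR-127-3p has the highest value, 1.03, without passing the threshold, and miR-136-3p, at 0.63, passes it.

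miR-136-3p rose in the Keluoxin libraries, to 426 to 702 CPM, median 517, against 258 to 430 CPM, median 377, in model libraries. Of the 6 Keluoxin libraries, 5 lay above every model library. The log2 fold change was 0.63 ± 0.16 (SE; adjusted p = 0.023). Keluoxin 4, the highest at 702 CPM, also had the most skeletal muscle miRNA (mir-1a, mir-133a, mir-133b and mir-206, 4 of 4 with reads). It had 1913 CPM against 285.9 to 414.7 in the other Keluoxin and 298.2 to 427.1 in model libraries. Of 4 tested skeletal muscle arms 1 was higher in Keluoxin. Keluoxin 4 also had the highest pericyte and smooth muscle sum, 6992 CPM, and the lowest sum of the 7 retinal precursors, 316600 CPM. Without Keluoxin 4 the log2 fold change of miR-136-3p was 0.55 (adjusted p = 0.040). It kept its sign and its call in 23 of 25 alternative fits and lost the call with upper quartile scaling (0.36; adjusted p = 0.185) and with no filter on low counts (0.57; adjusted p = 0.061). miR-136-5p, from the same hairpin, had 99.1 to 178.7 CPM, median 152.7, in Keluoxin and 135.5 to 175.8 CPM, median 168.0, in model libraries, a log2 fold change of -0.15 (95% interval -0.46 to 0.15; adjusted p = 0.436).

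miR-434-5p fell while miR-434-3p, the most abundant of all member arms, did not pass the test. miR-434-5p had 288.6 to 426.5 CPM, median 386.7, in Keluoxin and 394.7 to 615.2 CPM, median 527.5, in model libraries. Only model 6, at 394.7 CPM, overlapped the Keluoxin range. The log2 fold change of miR-434-5p was -0.48 ± 0.13 (SE, adjusted p = 0.027). The call was lost in 5 of 25 alternative fits. Among them were those without model 3, without model 4 or without Keluoxin 5 (adjusted p 0.0521 to 0.0679) and that with total counted reads as the scale (-0.30, adjusted p = 0.129). miR-434-3p had 962.3 to 1319 CPM, median 1134, in Keluoxin and 836.2 to 1599 CPM, median 1272, in model libraries, a log2 fold change of -0.089 (95% interval -0.41 to 0.23; adjusted p = 0.672).

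miR-433-5p, a scarce arm with 198 reads, was lower in Keluoxin at 1.58 to 3.06 CPM, median 2.28, against 2.60 to 4.81 CPM, median 4.06, in model libraries. Its log2 fold change was -0.71 ± 0.22 (SE; adjusted p = 0.047). This call was the least firm: 18 of 25 alternative fits lost it, DESeq2 among them, and of the fits that left out 1 library only those without model 1 or without Keluoxin 1 kept it (adjusted p 0.0509 to 0.111 in the other 10). With reads free of differences to the precursor the log2 fold change of miR-433-5p was -0.36 (adjusted p = 0.259). miR-433-3p, which held most of the precursor's 13719 reads, had 159.9 to 256.0 CPM, median 204.3, in Keluoxin and 177.8 to 324.1 CPM, median 191.2, in model libraries, a log2 fold change of -0.097 (95% interval -0.48 to 0.29; adjusted p = 0.699). Without model 2, its highest library, that value was 0.040.

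The arms of mir-431 and miR-127-5p did not pass the test either. miR-431-3p, read mostly from the shifted start shown above, had 26.4 to 46.6 CPM, median 35.4, in Keluoxin and 23.6 to 34.6 CPM, median 32.4, in model libraries, a log2 fold change of 0.25 (95% interval -0.11 to 0.60; adjusted p = 0.288). Here 4 Keluoxin libraries lay above every model library. miR-431-5p had a log2 fold change of -0.28 (95% interval -0.69 to 0.14; adjusted p = 0.310). miR-127-5p, at 284.4 to 348.4 CPM in Keluoxin and 166.7 to 423.0 CPM in model libraries, had one of -0.019 (95% interval -0.41 to 0.37; adjusted p = 0.943).

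miR-127-3p had the largest log2 fold change of the 17 arms, 1.03 ± 0.38 (SE), and did not pass the threshold (95% interval 0.21 to 1.85; adjusted p = 0.076). Its values were 299 CPM in Keluoxin 1, 340 in Keluoxin 2, 1525 in Keluoxin 3, 540 in Keluoxin 4, 595 in Keluoxin 5 and 1232 in Keluoxin 6, whereas the 6 model libraries ran from 289 to 435 CPM, median 380. Keluoxin 3 to 6 lay above every model library and Keluoxin 1 and 2 lay within the model range. Single libraries moved the value both ways. Without Keluoxin 1 the log2 fold change was 1.21 (adjusted p = 0.043) and without Keluoxin 2 it was 1.19 (adjusted p = 0.049). Without Keluoxin 3 it was 0.63 (adjusted p = 0.197) and without Keluoxin 6 it was 0.84 (adjusted p = 0.156). Over all alternative fits the adjusted p ran from 0.043 to 0.197. The coefficient of variation between libraries was 66.8% in Keluoxin and 16.8% in model libraries, while that of miR-127-5p, from the same hairpin, was 8.28% in Keluoxin and 26.3% in model libraries.

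The spread of miR-127-3p lay in the reads that began at the RefSeq start. These reads, with the seed shown above, gave 179.6 to 1396 CPM, median 440.8, in Keluoxin and 198.1 to 293.8 CPM, median 255.6, in model libraries. Reads that began 1 nt earlier gave 96.5 to 117.3 CPM, median 106.5, in Keluoxin and 68.7 to 116.5 CPM, median 102.4, in model libraries. The earlier-starting reads thus varied little among the Keluoxin libraries, with 108.7 CPM in Keluoxin 3 and 107.6 in Keluoxin 6, the libraries with the most miR-127-3p. Among single sequences, the read identical to the RefSeq mature sequence and the most frequent read that began 1 nt earlier are compared.
miR-127-3p read at the RefSeq start: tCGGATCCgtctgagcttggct
miR-127-3p read 1 nt earlier: aTCGGATCcgtctgagcttggt
The first had 4.08 to 265.9 CPM, median 45.5, in Keluoxin and 10.6 to 24.8 CPM, median 14.9, in model libraries. The second, whose last base differs from the precursor, had 40.7 to 49.7 CPM, median 47.1, in Keluoxin and 30.7 to 56.2 CPM, median 46.9, in model libraries. The pair thus differs in its last base as well as in its start. Another frequent read began at the RefSeq start, with 3313 reads against 3390 for the first, and its last base differs from the precursor. This 23 nt read had 26.9 to 98.3 CPM, median 58.2, in Keluoxin and 27.4 to 55.5 CPM, median 42.6, in model libraries. It was lowest in Keluoxin 4.

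**Figure D4:**
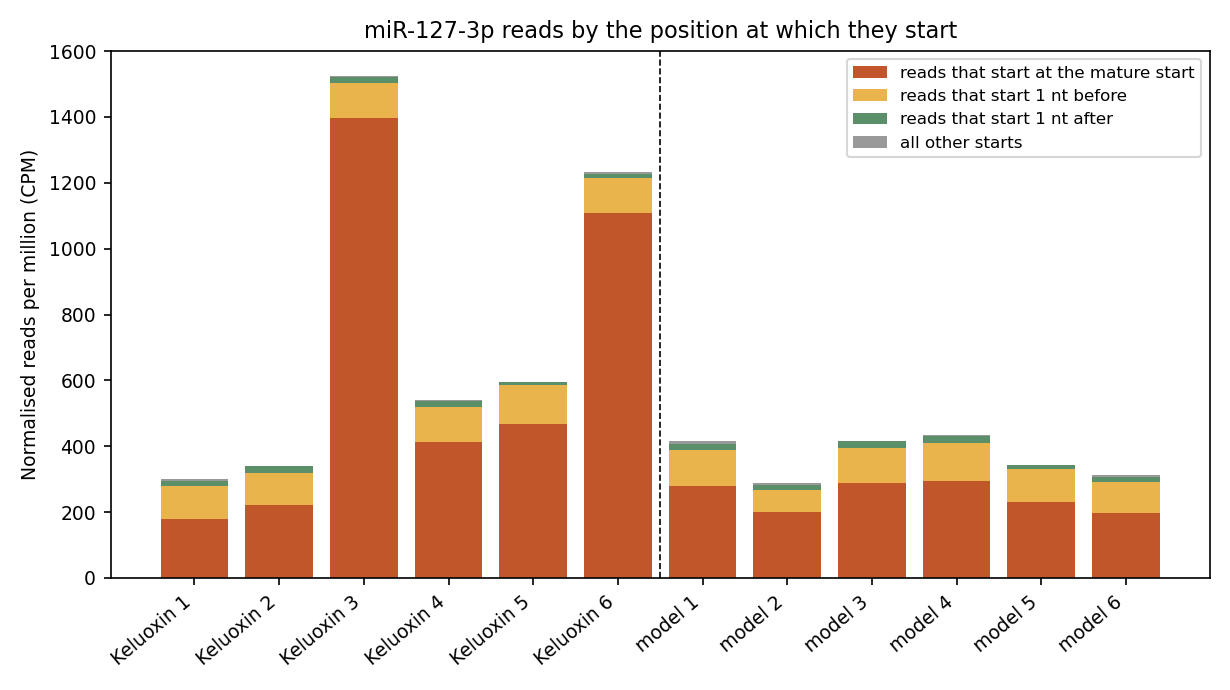
Normalised miR-127-3p reads (CPM, vertical axis) in each library, Keluoxin left and model right of the dashed line, stacked by the start of the read relative to the RefSeq mature start. Reads at the mature start reach 1396 CPM in Keluoxin 3 and 1107 in Keluoxin 6, and those 1 nt before it stay between 68.7 and 117.3 CPM in all 12 libraries.

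Over the 12 libraries, the annotated arms outside the member list whose log2 levels were most like that of miR-127-3p were miR-486b-5p (r = 0.755, Spearman's rho 0.573), miR-3547-3p (r = 0.752, rho 0.846), miR-486a-5p (r = 0.725, rho 0.538), miR-451a-5p (r = 0.702, rho 0.594) and miR-34a-5p (r = 0.642, rho 0.524). These are descriptions over libraries that share their scaling and their high values in a few Keluoxin libraries. Without Keluoxin 3 and 6 the r was 0.496 for miR-486b-5p, 0.778 for miR-3547-3p, 0.517 for miR-486a-5p, 0.775 for miR-451a-5p and 0.410 for miR-34a-5p. Within the groups, of 6 libraries each, the r of miR-451a-5p was 0.608 in Keluoxin and -0.439 in model libraries, that of miR-486b-5p was 0.689 in Keluoxin and 0.238 in model libraries, and that of miR-3547-3p was 0.844 in Keluoxin and 0.723 in model libraries. Of these, miR-451a and the miR-486 arms are abundant in red blood cells. The erythroid list (mir-451a, mir-144 and mir-486a, 3 of 3 with reads) summed to 56.5 CPM in Keluoxin 1, 85.3 in Keluoxin 2, 459.4 in Keluoxin 3, 394.6 in Keluoxin 4, 722.6 in Keluoxin 5 and 194.2 in Keluoxin 6, against 57.9 to 76.6 CPM in model libraries. Of its 2 tested arms, 1 was higher in Keluoxin. The same 4 libraries were high for the sum of this list and for miR-127-3p, in a different order. In them most of the sum was miR-451a-5p, at 147.3 to 649.7 CPM. The level of miR-486a-5p was 126.2 CPM in Keluoxin 3 and 68.1 in Keluoxin 5. In Keluoxin 4 it was 30.4 CPM, inside the model range of 27.7 to 35.1 CPM. It was also higher in Keluoxin 2 (47.2 CPM) than in Keluoxin 6 (40.3 CPM). The part of blood RNA in the miR-127-3p values was not tested. The summed level of all 10 precursors was most like miR-130b-5p (r = 0.817, rho 0.818) and miR-374b-3p (r = 0.734, rho 0.657), then miR-802-5p (r = 0.660), miR-301a-5p (r = 0.636) and miR-380-3p (r = 0.635), the last from the same imprinted region.

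Since arms of one hairpin come from the same precursor, their balance was compared within each precursor, as the log2 ratio of 5p to 3p reads (limma, 147 precursors whose arms both reached 10 reads in 6 or more libraries). Of 7 member precursors in the fit, 2 passed the test, miR-770 toward 5p and miR-136 toward 3p in Keluoxin, beside 17.7% of all 147. The difference was negative, toward 3p in Keluoxin, in 6 of 7 member precursors and in 44.2% of all precursors, and its median was -0.61 over the members and 0.039 over all.

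**Figure D5:**
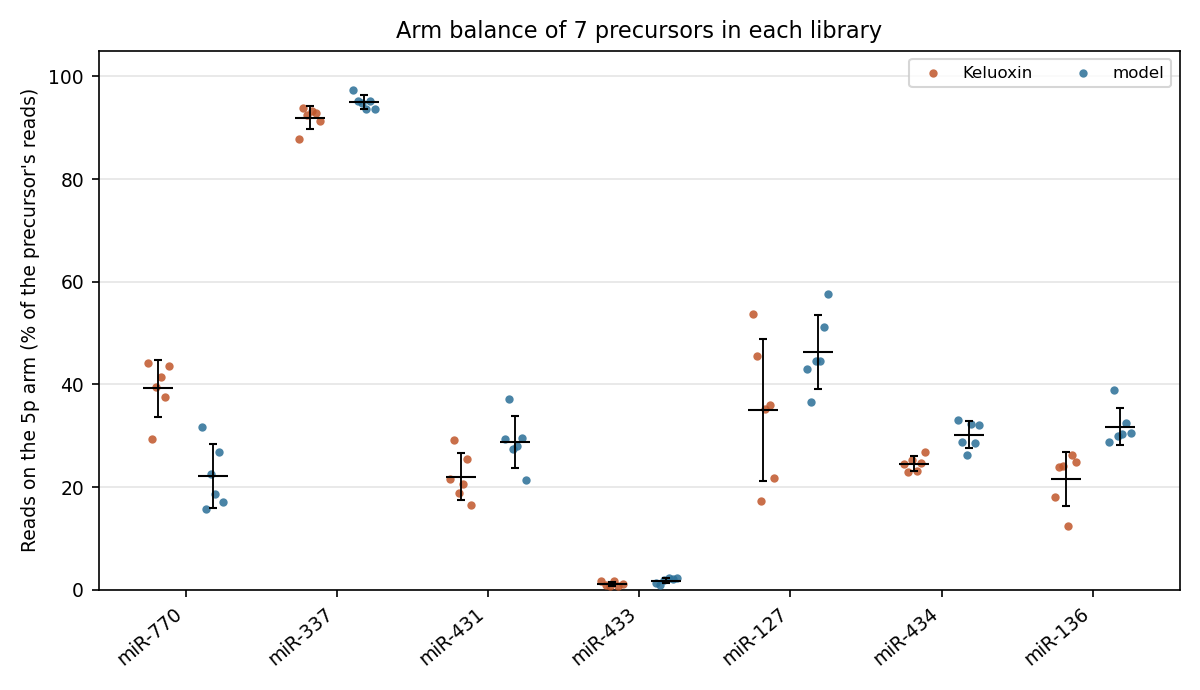
Reads on the 5p arm as % of the reads of each precursor (vertical axis) in each library, for the 7 precursors in the fit; orange points are Keluoxin and blue points model libraries, with the mean and SD of 6. The Keluoxin values of miR-136, 12.4 to 26.2%, all lie below the model values, 28.7 to 38.9%, and those of miR-770 lie mostly above.

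The 5p arm of miR-770 took 29.3 to 44.3% of its reads, median 40.4%, in Keluoxin and 15.7 to 31.7%, median 20.6%, in model libraries, and only model 1, at 31.7%, reached into the Keluoxin range. The difference in log2 ratio was 1.21 ± 0.25 (SE; adjusted p = 0.00697), and it passed in each of 18 alternative fits. With reads near the mature start alone it was 0.80 (adjusted p = 0.043), the 5p share being 23.7 to 40.6%, median 31.8%, in Keluoxin and 15.2 to 26%, median 20.6%, in model libraries.

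For miR-136 the 5p arm took 12.4 to 26.2% of reads, median 24.0%, in Keluoxin and 28.7 to 38.9%, median 30.4%, in model libraries, without overlap, as in 10.2% of all precursors. The difference was -0.80 ± 0.23 (SE; adjusted p = 0.043). The call was lost in 10 of 18 alternative fits, those without model 2, 3, 4, 5 or 6 or without Keluoxin 1, 2 or 3 included (adjusted p 0.0505 to 0.0838), at differences of -0.84 to -0.70. Without Keluoxin 4, the library with the lowest 5p share, it was -0.61 (adjusted p = 0.031).

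The other 5 precursors did not pass. miR-434 had 22.9 to 26.8% of reads on 5p, median 24.6%, in Keluoxin and 26.3 to 33.1%, median 30.5%, in model libraries, a difference of -0.41 (adjusted p = 0.055). miR-337, read mostly from 5p, had 87.7 to 93.9%, median 92.7%, in Keluoxin and 93.6 to 97.4%, median 95%, in model libraries, a difference of -0.73 (adjusted p = 0.0502), which was called without Keluoxin 4 (-0.79; adjusted p = 0.043). In both, the groups overlapped by a narrow range at the edge. The differences were -0.52 for miR-431 (adjusted p = 0.115), -0.61 for miR-433 (adjusted p = 0.170) and -0.75 for miR-127 (adjusted p = 0.193), the last with 17.2 to 53.8% in Keluoxin and 36.6 to 57.6% in model libraries.

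Reads of the 10 precursors often differed from the precursor, mostly at the last base. Reads without a difference made up 43.6 to 50.3%, median 44.9%, in Keluoxin and 52.4 to 56.4%, median 53.1%, in model libraries, and the groups did not overlap. A different last base was found in 31.6 to 44% in Keluoxin and 34.8 to 37.7% in model libraries, and a difference at an inner base in 10.4 to 16.8% in Keluoxin and 7.92 to 9.70% in model libraries. Over all counted reads of any precursor, 43.9 to 50.6% of Keluoxin and 39.2 to 43.3% of model reads held a difference, so the same separation of the groups was seen beyond the member precursors. A last base read as G was found in 4.52 to 9.93% of the members' reads in Keluoxin and 2.64 to 3.95% in model libraries. Of the arms, miR-127-3p had the fewest reads without a difference, 25.9% of its reads, and miR-433-5p the most, 75.8%.

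By position, inner differences were spread thinly except at 1 site, but the arms were unlike. An inner difference was found in 26.4% of miR-127-3p reads and 38.0% of miR-337-3p reads, and in 0.549 to 8.87% in the other arms. Of 96 positions with at least 100 covering reads and 20 reads changed to any other base, 20 had A to G as their most frequent change, and 1 position reached 5%: A10G of miR-337-3p, counted from the RefSeq mature start. There 63 of 214 covering reads were changed, 29.4%, in 10 of 12 libraries. The share was 23.6% (29 of 123 reads, 95% Wilson interval 16.9 to 31.8%) in the pooled Keluoxin libraries and 37.4% (34 of 91, 28.1 to 47.6%) in the pooled model libraries, intervals that overlap and cover counting error only. The next highest, T18G of miR-127-3p, stood at 1.81%, with 2.31% in Keluoxin and 0.796% in model reads. Positions of miR-127-3p went both ways between the groups. T10C had 0.803% in Keluoxin and 2.4% in model reads, and T1C had 0.632% and 2.56%. The changed base of miR-337-3p lies outside the seed.

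The rest of the imprinted region was described by a list of 41 further precursors. Of 48 tested arms, 0 were higher and 7 were lower in Keluoxin with edgeR. The background was 9.25% higher and 8.01% lower over all tested arms, and 4.11% higher and 9.59% lower over annotated arms. With DESeq2 0 and 11 were called, beside 6.28% higher and 4.78% lower of the 2134 arms in that fit. At an unadjusted p under 0.05 with edgeR there were 3 higher and 15 lower, counts with no share over all arms beside them. The median log2 fold change of the 48 arms was -0.22, against -0.13 over the 17 member arms and -0.12 over annotated arms. The smallest p was that of miR-379-5p, with 273.2 to 402.1 CPM, median 356.0, in Keluoxin and 480.8 to 654.2 CPM, median 587.5, in model libraries, a log2 fold change of -0.75 ± 0.13 (SE; adjusted p = 0.00515). The groups of miR-379-5p did not overlap. The next were miR-369-5p (-0.86; adjusted p = 0.012), miR-379-3p (-0.95; adjusted p = 0.016), miR-134-5p (-0.44; adjusted p = 0.016) and miR-411-5p (-0.40; adjusted p = 0.021). miR-136-3p was thus the 1 arm called higher among the tested arms of both lists.

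Among the 17 member arms themselves, levels did not move as one. Taken as deviations from the group means of log2 CPM, the 136 pairs of arms had a median correlation of 0.13 over the 12 libraries, from -0.73 to 0.81, values that share library and scaling and are given with no test.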

How the data were processed

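Libraries of 6 Keluoxin and 6 model samples were analysed, prepared with a NEBNext small RNA kit, size-selected and sequenced on an Illumina instrument, per the labels' protocols. Tools in the submitters' processing notes are Novoalign, Bowtie, cutadapt and bcl2fastq, with no versions. The genome build and the miRBase release were not given in the sources used here. The deposited values are whole-number read counts per distinct sequence and precursor, not normalised, of sequences with at least 2 reads, per the file headers and values. Deposited lengths and positions have no normalisation, per the file headers.

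Each sequence was counted once by its undivided reads and assigned to 5p or 3p by the side of the precursor's middle. Levels of 811 arms were fitted with edgeR 4.0.16 (TMM, filterByExpr, quasi-likelihood F test; R 4.3.3), arm balance (pseudocount 0.5 reads), start share (logit) and length with limma 3.58.1, and DESeq2 1.42.0 was an alternative. Intervals are 95% ones. CPM are counts divided by the TMM-scaled library size. In simulated counts of 811 arms, the level fit recovered 19.4% of 1.5-fold, 50.7% of 2-fold and 81.8% of 4-fold changes.

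The members and lists were chosen with earlier results of these data known. Every tested member arm is given, with ranges for the most abundant arm of each precursor and the called ones. Alternatives were other scalings, filters, read classes, a replicate block and leaving out each library, and 25 of them concern single arms. Of the mir-127 reads, 73 also aligned to 2 predicted precursors.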

Additional observations from a re-analysis of the deposited data

Results flagged for a closer look

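Of 66 groups of 6 libraries examined (levels, sums and arm shares), 4 had 1 library far from the rest, where chance gives about 5%. Keluoxin 2 was high for miR-540-3p, at 13.1 CPM against 8.36 in the next Keluoxin library. Model 6 was low for miR-136-5p, at 135.5 CPM against 164.4 in the next model library. Keluoxin 5, the shallowest library, had 2 miR-673 reads, 0% of them on the 5p arm, against 61.5% in the next Keluoxin library. Model 2 was high for the 5p share of miR-136, at 38.9% against 32.4% in the next model library.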

How the results depend on the processing

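The count of member arms called higher, 1, was 0 with upper quartile scaling, with no filter on low counts and with both arms summed. It was 1 to 2 when 1 library was left out. Over all arms the share called higher was 9.25% in the main fit, 8.88% with upper quartile scaling and 2.8% with no filter. That share was 8.96% with both arms summed and 4.27 to 18.4% when 1 library was left out. The count of member arms called lower, 4, was 1 with total counted reads and 1 to 4 when 1 library was left out. It was 2 with no filter, with annotated precursors only, with exact reads only, with both arms summed and with a replicate block. Over all arms the share called lower was 8.01% in the main fit, 3.21% with total counted reads and 2.01% with no filter. With annotated precursors only that share was 7.28%, with exact reads 8.37%, with both arms summed 9.4% and with the replicate block 6.29%. When 1 library was left out it was 4.52 to 10.8%. Of 2 arm-balance calls, 1 was left with at least 5 reads per arm and 1 with the replicate block. With reads on 1 precursor only 4 were made, and 1 to 3 when 1 library was left out. Over all precursors the share called was 17.7% in the main fit, 5.98% with at least 5 reads and 9.52% with the block. That share was 22.2% with reads on 1 precursor only and 6.94 to 20.4% when 1 library was left out. The length calls, 0, were 0 to 2 when 1 library was left out, with no share over all arms beside them. With reads of annotated precursors as the scale, the log2 ratio of the summed level was 0.33 for the 10 precursors and 0.35 for the anti-Rtl1 ones, against 0.12 and 0.14. That of the Meg3 side, -0.33, was -0.12 on this scale and -0.16 with total counted reads. Over all arms, 140 calls became 228 without model 1 and Keluoxin 4 together, 236 with DESeq2 and 72 to 244 when 1 library was left out. Signs turned only in arms that were never called: miR-770-5p was -0.068 with reads of 18 to 26 nt and -0.096 near the mature start, a setting chosen after seeing the data. With total counted reads, miR-337-5p was 0.054, miR-433-3p 0.057, miR-127-5p 0.18, miR-434-3p 0.086 and miR-136-5p 0.017. miR-431-3p was -0.016 with upper quartile scaling. miR-434-3p was 0.017 with annotated precursors only, and miR-127-5p was 0.081 there, 0.096 with exact reads, 0.0026 at 18 to 26 nt and 0.029 with the replicate block. Leaving out 1 library gave -0.21 to 0.040 for miR-433-3p, -0.16 to 0.078 for miR-127-5p and -0.18 to 0.0011 for miR-434-3p. Same-numbered samples correlated at 0.037 to 0.24 in their deviations from the group means, and 1 of 6 numbers matched best with itself, so the numbers were not taken as pairs. The replicate block ended the calls of miR-434-5p (-0.47; adjusted p = 0.072), miR-433-5p (-0.71; adjusted p = 0.121) and the miR-136 arm balance (adjusted p = 0.054). The causes were not tested.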
